A study of Mus musculus with 6 samples.

Results

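Apoptosis and caspase genes were followed in the auditory nerve of old and young mice of the inbred strain CBA/CaJ. Members were the genes of the deposited table whose symbol begins with Bcl2, or with Casp or Birc and a digit, together with Bax, Bak1, Bid, Bad, Bbc3, Pmaip1, Mcl1, Apaf1, Xiap, Gsdmd, Nlrp3 and Pycard, kept at a mean of at least 10 normalised read counts over the 6 libraries. Such a symbol was carried by 38 of the 17607 genes, and 36 reached that mean. Just inside the limit stood Bcl2a1a with a mean of 11.7, and the excluded genes were Bcl2a1d, with 3.79, and Birc7, with 2.48. All 36 members passed the filter on low counts and were tested.

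RNA sequencing was done on 3 old mice aged 2.5 years and 3 young mice aged 2 months, all untreated CBA/CaJ animals as far as the labels say (sex: not stated). The nerve was dissected out of the cochlea, and both ears of a mouse went into 1 library, so the replicates are separate animals. Libraries held 34587979 to 38835751 recovered reads in old nerves and 35213213 to 40841478 in young nerves. The 12 neuron and 9 Schwann cell markers looked up were above 0 in every library.

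Cells that die by apoptosis do so along a pair of routes that meet at the executioner caspases. In the mitochondrial route BH3-only proteins sense stress and free Bax and Bak from anti-apoptotic BCL2 proteins, and cytochrome c then drives Apaf1 to activate caspase-9. In the death receptor route caspase-8 is activated at the membrane. Inflammatory caspases serve another end. At inflammasomes built on sensors such as Nlrp3 and the adaptor Pycard, caspase-1 matures interleukin-1 family cytokines and cleaves gasdermin D. Pores of gasdermin D cause the lytic death called pyroptosis. Loss of spiral ganglion neurons, the cell bodies of this nerve, is a known feature of ageing in the inner ear.

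The inflammatory caspase genes Casp1, Casp4 and Casp12 stand in a row on chromosome 9, all on the plus strand, and their upstream sequence is shown because they are compared together below. In the mm10 build Casp1 runs from 5298517 to 5307281, Casp4 from 5308849 to 5336791 and Casp12 from 5345476 to 5373034, with 1567 bases between the first pair and 8684 between the second. The 250 bases before each start, from RefSeq on GRCm38.p6, follow 5′ to 3′. Capitals mark a match to GAGGAA on either strand, the core letters of sites for PU.1, a transcription factor of myeloid cells.
Casp1, chr9:5298267-5298516, plus strand: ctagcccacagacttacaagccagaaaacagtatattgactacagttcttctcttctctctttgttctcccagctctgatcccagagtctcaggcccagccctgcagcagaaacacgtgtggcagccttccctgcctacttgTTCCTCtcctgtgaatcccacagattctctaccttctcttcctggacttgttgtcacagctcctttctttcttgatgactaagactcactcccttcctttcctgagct
Casp4, chr9:5308599-5308848, plus strand: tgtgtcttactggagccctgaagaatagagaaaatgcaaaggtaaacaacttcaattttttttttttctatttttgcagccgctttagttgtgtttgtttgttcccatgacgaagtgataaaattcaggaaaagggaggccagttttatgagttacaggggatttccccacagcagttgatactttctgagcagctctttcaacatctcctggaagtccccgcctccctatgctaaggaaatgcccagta
Casp12, chr9:5345226-5345475, plus strand: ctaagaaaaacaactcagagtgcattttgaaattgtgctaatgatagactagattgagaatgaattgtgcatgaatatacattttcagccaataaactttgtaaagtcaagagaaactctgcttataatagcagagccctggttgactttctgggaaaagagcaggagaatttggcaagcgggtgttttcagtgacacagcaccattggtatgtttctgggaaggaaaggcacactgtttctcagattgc

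The sequences before Bcl2a1a and Bcl2a1b are shown because these anti-apoptotic genes, members of a family of close copies, had large rises and may share reads. Shifted by 44 bases against each other, the pair were identical at 205 of 206 positions, with 174 in 1 run. Both hold the PU.1 letters 3 times in these 250 bases, of which the first pair adjoin.
Bcl2a1a, chr9:88956670-88956919, plus strand: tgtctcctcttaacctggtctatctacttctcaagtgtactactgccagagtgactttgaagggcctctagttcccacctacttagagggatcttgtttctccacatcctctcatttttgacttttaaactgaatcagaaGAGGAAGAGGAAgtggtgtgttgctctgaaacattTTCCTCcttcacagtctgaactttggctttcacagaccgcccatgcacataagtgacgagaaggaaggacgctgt
Bcl2a1b, chr9:89199023-89199272, plus strand: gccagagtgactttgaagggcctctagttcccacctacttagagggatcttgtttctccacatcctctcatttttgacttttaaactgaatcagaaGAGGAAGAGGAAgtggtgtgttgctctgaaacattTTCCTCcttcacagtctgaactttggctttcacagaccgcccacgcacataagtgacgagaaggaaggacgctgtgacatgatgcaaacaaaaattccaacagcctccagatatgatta

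Promoters of 32 members were in the RefSeq table, as windows from 250 bases before to 50 after a start. Gsdmd and Pmaip1 were among those not matched. GAGGAA, read on both strands, was in a window of 15 of the 32 members (46.9%) and of 31.3% of the 27025 genes of the table. A gene can have several windows, and counted by window it was in 36.4% of 44 for members and 28.3% of 32851 for the table. By gene, it was there in 6 of 11 members that rose, 1 of 3 that fell and 8 of 18 that passed in neither direction. The near-identical copies Bcl2a1a and Bcl2a1b are both among the 6. The core of the interferon-stimulated response element (GAAA and GAAA with any 2 bases between) and a core of p53 sites (CATG and CATG with any 6 bases between) were in none of the members' windows and in 3.99% and 0.833% of all genes. These matches describe letters, not binding.

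Of the 36 members 14 rose and 3 fell in old nerves (limma, adjusted p under 0.05), or 38.9% and 8.33%. Among all 15882 genes tested 34.6% passed: 15.9% rose and 18.7% fell. The members' median log2 fold change, taken as old less young on a log2(value + 1) scale, was 0.37, and that of all tested genes was -0.000797. Complete separation of the groups, with every old library above every young one, was found in 19 members (52.8%) against 25.5% of tested genes, and the opposite in 5 members (13.9%) against 26.3% (51.8% of tested genes did not overlap in either direction). With upper-quartile scaling 59.5% of all calls were rises, against 45.9% here, and 16 members rose and 0 fell.

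The largest rise on the log2 scale was that of Pmaip1, and 5 of the 14 rises were at least 2-fold, whereas none of the falls was. Bcl2a1a, kept as a member only through its old libraries, is among the 5. How many of all tested genes changed at least 2-fold was not computed. Without a single library the members that rose numbered 7 (old 1 removed), 8 (old 2), 6 (young 2) and 8 (young 3), and the members that fell numbered 2, 0, 0 and 1. Without young 1 the counts were 12 and 1, and without old 3 they were 13 and 4. Removing young 1 and old 2 together left 4 rises and 0 falls. Over all tested genes, 2524 rises and 2969 falls became 1540 and 2191 without old 1, and 1818 and 2286 without old 2. They became 2757 and 3360 without old 3, 1549 and 2016 without young 1, and 1159 and 1430 without young 2. Without young 3 they were 1415 and 1662, and without young 1 and old 2 together 831 and 945. Of the members only Bcl2a1b and Pmaip1 passed in every alternative that gave them a value.

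**Figure D1:**
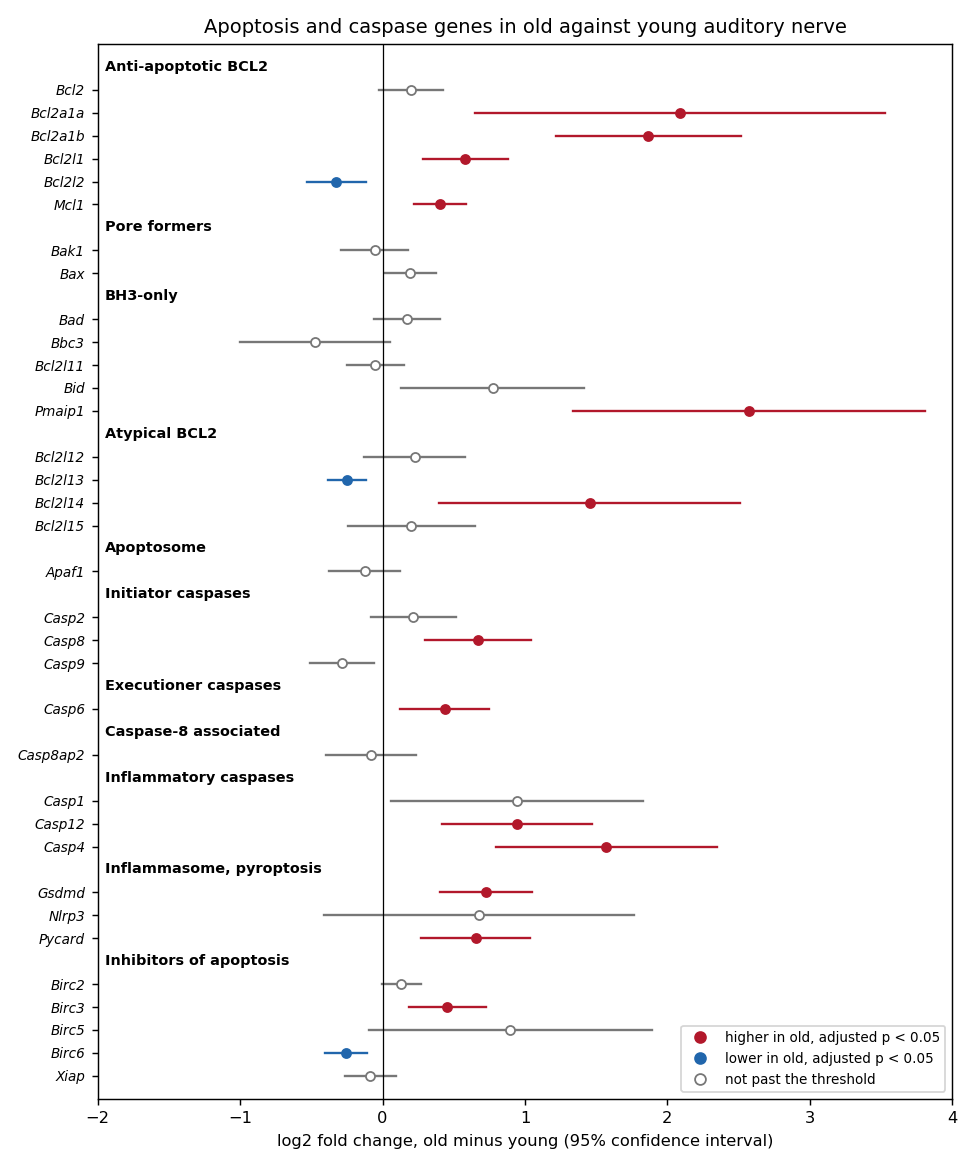
Log2 fold change of 34 of the 36 members, old minus young nerve, grouped by role, with 95% confidence intervals from limma (n = 3 mice a group). Filled points passed an adjusted p of 0.05: 13 lie to the right of 0 and 3 (Bcl2l2, Bcl2l13 and Birc6) to the left.

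Of the 3 inflammatory caspase genes 2 rose in old nerves and none fell, against 15.9% and 18.7% of all tested genes, and their median log2 fold change was 0.94. Casp4, which in the mouse encodes caspase-11, the sensor of cytosolic lipopolysaccharide, had 93.0, 129 and 86.1 normalised read counts in old 1, 2 and 3 and 52.7, 25.6 and 27.5 in young 1, 2 and 3. The groups did not overlap, and Casp4 rose 2.91-fold (log2 fold change 1.57 ± 0.33 SE, adjusted p = 0.0127). Casp12, whose product sits at the endoplasmic reticulum, had 501, 594 and 323 in old nerves and 260 (259.5), 215 and 240 (240.1) in young nerves. It rose 1.98-fold (log2 fold change 0.94 ± 0.22, adjusted p = 0.0185), again without overlap, although old 3 stood nearer to the young libraries than the others did.

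Casp1, the protease that matures interleukin-1β, had 113, 115 and 45.5 in old nerves, while young nerves gave 48.0, 42.3 and 39.6. Old 1 and 2 were more than double any young library, and old 3 lay within the young range. Casp1 did not pass in limma (log2 fold change 0.94, 95% confidence interval 0.06 to 1.83, adjusted p = 0.0907) and did so without old 3 (1.38, adjusted p = 0.00551). Its FDR was 0.0362 in the authors' deposited table, and DESeq2 gave an adjusted p of 0.0318 and edgeR one of 0.0625. Casp4 missed the threshold narrowly without young 2 (adjusted p = 0.0502), and Casp12 missed it without old 1 (0.0583), young 2 (0.0684) or young 3 (0.0564). With trends in transcript length and GC content removed Casp4 had 1.08 (adjusted p = 0.0518), Casp12 0.62 (0.0567) and Casp1 0.46 (0.343).

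Of the 3 partners of these caspases 2 rose and none fell, where 15.9% and 18.7% of all tested genes did. Gsdmd, which encodes the pore-forming gasdermin D (chromosome 15, 75862339 to 75867404), had 747, 722 and 545 in old nerves and 383, 410 (409.9) and 413 in young nerves. The lowest old library was above the highest young one, and Gsdmd rose 1.67-fold (log2 fold change 0.73 ± 0.14, adjusted p = 0.00934). Pycard, the adaptor ASC, had 288, 254 and 207 in old nerves and 155, 145 and 171 in young nerves, a rise of 0.65 ± 0.16 (adjusted p = 0.0213). Pycard did not pass without old 1 (0.0622), old 2 (0.0576), young 1 (0.0574) or young 2 (0.0783). Nlrp3, the sensor that nucleates an inflammasome, had 40.2, 87.3 and 41.6 in old nerves and 46.1, 17.7 and 41.8 in young nerves. Only old 2 was above the young libraries, and Nlrp3 did not pass (log2 fold change 0.68, interval -0.41 to 1.77, adjusted p = 0.286).

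Of the 4 apoptotic caspases given here 2 rose and none fell, against 15.9% and 18.7% of all tested genes. Casp8, the initiator at death receptors, had 604, 548 and 406 normalised read counts in old nerves and 324, 305 and 337 in young nerves. It rose 1.61-fold (log2 fold change 0.67 ± 0.16, adjusted p = 0.0185) with old 3 the lowest of the old libraries. Casp6, an executioner that cleaves nuclear lamins, had 477, 500.1 and 377 in old nerves and 324, 322 and 346 in young nerves, and rose by 0.44 ± 0.13 (adjusted p = 0.0403).

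Casp9 and Casp2 did not pass. Casp9, the initiator activated on the apoptosome, had 662, 710 (709.8) and 799 in old nerves and 842, 923 and 874 in young nerves. Its old libraries were all below the young ones (log2 fold change -0.28, interval -0.51 to -0.06, adjusted p = 0.0565), and it passed without old 3 (-0.36, adjusted p = 0.0214) and in DESeq2 (0.0461). Cela2a overlaps Casp9 by 1025 bases on the opposite strand, at a mean of 3.38 counts. Casp2, an initiator linked to p53, had 1223, 947 and 992 in old nerves and 797, 937 and 982 in young nerves, which overlap (0.22, interval -0.08 to 0.51). Casp8ap2, which encodes the caspase-8 associated protein FLASH, had a log2 fold change of -0.08, and Apaf1, the apoptosome scaffold, had 409, 387 and 404 in old nerves and 484, 421 and 409 in young nerves (-0.13, interval -0.38 to 0.12).

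Both rises among these apoptotic caspases rested in part on single libraries. Casp8 had an adjusted p of 0.0512 with old 1 removed, 0.0536 with old 2, 0.0682 with young 2 and 0.0510 with young 3. Casp6 had 0.108 with old 1 removed, 0.112 with old 2, 0.1002 with young 1, 0.118 with young 2 and 0.0871 with young 3, and was at 0.04 (adjusted p = 0.791) after removal of the length and GC trends.

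**Figure D2:**
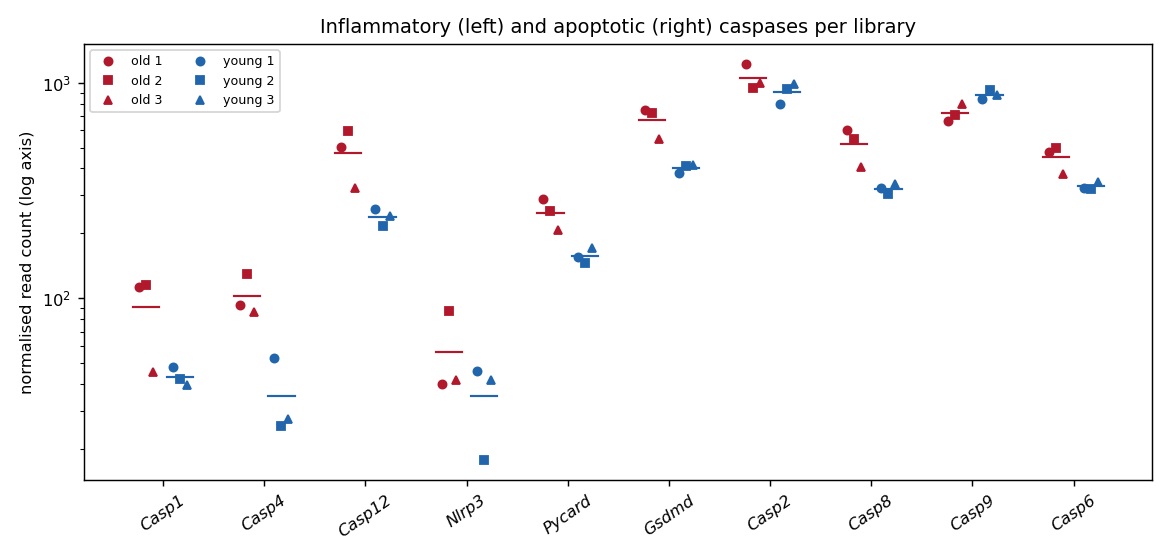
Normalised read counts of the inflammatory caspases with their partners (left 6 genes) and of 4 apoptotic caspases (right), on a log axis, per library, with old left of young and bars for group means (n = 3 mice). In Casp1, Casp12, Casp8 and Gsdmd old 3 is the lowest of the old libraries, and in Casp9 the old libraries are below the young ones.

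Set beside each other, inflammatory caspases made up a larger part of the caspase counts in old nerves. Casp1, Casp4 and Casp12 together took 19.3%, 23.6% and 15.0% of the counts of these 7 caspases in old 1, 2 and 3 and 13.6%, 10.2% and 10.8% in young 1, 2 and 3. Their summed counts averaged 667 ± 195 in old nerves and 317 ± 39.4 in young nerves (SD, n = 3 each), 2.10-fold, while those of Casp2, Casp6, Casp8 and Casp9 averaged 2748 ± 199 in old nerves and 2438 ± 133 in young nerves, 1.13-fold. Casp12 alone made up the larger part of the inflammatory sum, with means of 473 in old nerves and 238 in young nerves. The mean log2 value of the 3 less that of the 4 was -1.99, -1.66 and -2.43 in old nerves and -2.55, -3.11 and -3.11 in young nerves, a difference of 0.89 between the group means. The groups do not overlap, by a small margin between old 3 and young 1. That difference between the classes was not tested, since it is a score over chosen genes, and it ranged from 0.71 to 1.10 with 1 library left out. These sums, shares and scores leave out the 2 members not reported one by one, a choice made after the data were seen. Their size depends on that choice. It was not computed with length and GC trends removed. The log2 fold changes of Casp1, Casp4 and Casp12 were then 0.46, 1.08 and 0.62. Those of Casp2, Casp6, Casp8 and Casp9 were 0.21, 0.04, 0.51 and -0.15.

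Marker genes of other cell types also differed between the groups. Of 18 macrophage markers 16 rose and none fell, with a median log2 fold change of 1.33, and no marker was at 0 in any library. Their summed counts were 28419.6, 31487 and 19199.8 in old 1, 2 and 3 and 11375, 8166 and 8932 in young 1, 2 and 3. So old 2 was highest and old 3 lowest among the old libraries in both the macrophage sum and the inflammatory share of caspase counts. Neuron markers ran the other way, with sums of 300057, 347941 and 423359 in old nerves and 463531, 465081 and 465093 in young nerves (5 of 12 fell and none rose). Bone markers had sums of 3021, 4849.8 and 2518 in old nerves and 8948, 6559 and 6500.2 in young nerves, and 5 of 9 fell and none rose, with 1 marker at 0 in an old library. Erythroid markers had sums of 10377, 3283 and 15876 in old nerves and 2389, 4320.2 and 3268 in young nerves, and none of 5 passed, with old 2 inside the young range. Of 9 Schwann cell markers 1 rose and 3 fell. Over the 14 members that rose, old 3 was the lowest old library in 11, and old 1 was the highest in 10 and old 2 in 4. In bulk tissue fewer cells of a type and less RNA per cell cannot be told apart, and the part of these markers in the members' values was not tested.

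**Figure D3:**
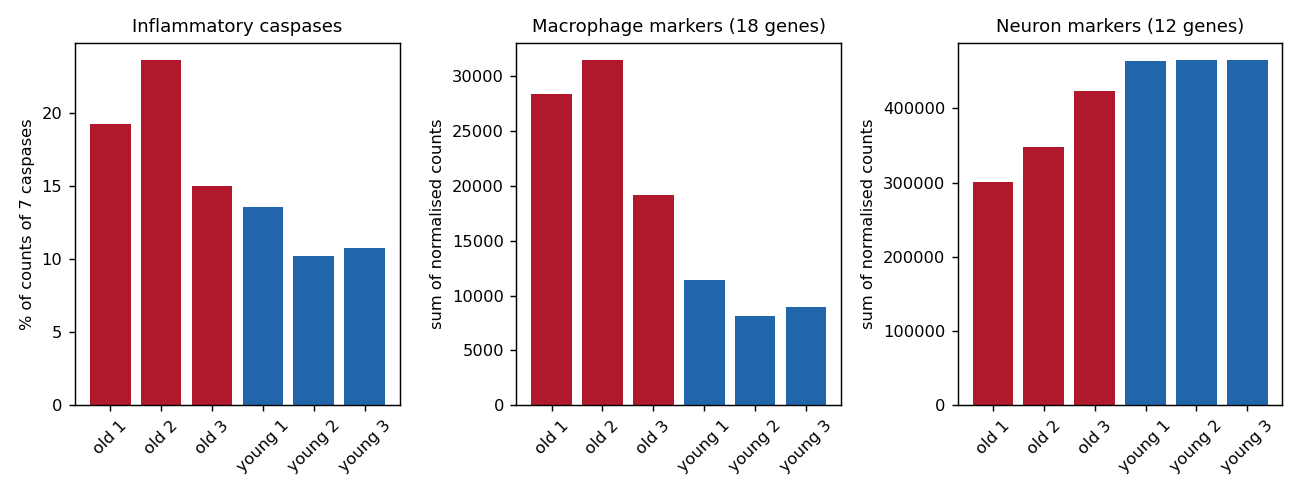
Share of Casp1, Casp4 and Casp12 in the counts of 7 caspases (left, percent), summed normalised counts of 18 macrophage markers (middle) and of 12 neuron markers (right), 1 bar per library. Old 3 has the lowest caspase share (15.0%) and macrophage sum (19199.8) and the highest neuron sum (423359) among the old libraries.

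Of 6 anti-apoptotic BCL2 genes 4 rose (66.7%) and 1 fell (16.7%), where 15.9% and 18.7% of all tested genes did. Among the 4 rises, Bcl2a1a reached the mean of 10 only through its old libraries and may share reads with Bcl2a1b, another of them. Per kilobase of transcript the most abundant members were of this class: Bcl2l1 (BCL-XL) at 2929 ± 432 normalised counts per kilobase in old nerves and 1948 ± 196 in young nerves, Bcl2l2 (BCL-W) at 1653 ± 151 in old nerves and 2067 ± 133 in young nerves, and Mcl1 at 1441 ± 112 in old nerves and 1087 ± 49.8 in young nerves (SD, n = 3 each). Bcl2l1 had 8313, 6255 and 7998 normalised read counts in old nerves and 4493, 5498 and 5017 in young nerves. It rose 1.504-fold (log2 fold change 0.58 ± 0.13, adjusted p = 0.0139), with the old libraries all above the young ones. Cox4i2 lies across it on the opposite strand over 6306 bases, at a mean of 63.0 counts against 6263 for Bcl2l1, and since no strand setting is stated reads of such a pair cannot be told apart. Mcl1, a short-lived survival protein, had 5155, 5136 and 4483 in old nerves and 3664, 3906 and 3578 in young nerves, a 1.33-fold rise (0.40 ± 0.08, adjusted p = 0.00994).

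Bcl2l2 went against its relatives, with 5816, 6157 and 6938 in old nerves and 8227, 8118 and 7302 in young nerves. The groups did not overlap, and it fell by 0.32 ± 0.09 on the log2 scale (adjusted p = 0.0284), a call lost without old 1 (0.0752), old 2 (0.0761), young 1 (0.0902) or young 2 (0.0986), and after trend removal (-0.20, adjusted p = 0.0898). Per kilobase, Bcl2l1 stood to Bcl2l2 at a ratio of 1.78 ± 0.31 in old nerves and 0.95 ± 0.12 in young nerves (SD, n = 3 each), a ratio chosen after its values were seen and not tested. Bcl2, the founding member of the family, had 2554, 2159.7 and 2147 in old nerves and 1823, 2113 and 2036 in young nerves. Its groups were apart by a narrow gap and it did not pass (0.20, interval -0.03 to 0.42, adjusted p = 0.147), but it did after length and GC trends were removed (0.42, adjusted p = 0.0236).

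Bcl2a1b, an NF-κB target of blood cells, had 106, 92.0 and 79.3 in old nerves and 23.5, 18.7 and 33.0 in young nerves. All old libraries were more than double every young one, a 3.68-fold rise (log2 fold change 1.87 ± 0.28, adjusted p = 0.00580). Bcl2a1a had 22.2, 19.9 and 14.5 in old nerves and 8.46, 3.93 and 1.10 in young nerves, which is 9, 4 and 1 reads in the young libraries, and rose by 2.09 ± 0.61 (adjusted p = 0.0363). That call was lost without old 1 (0.113), old 2 (0.0874), old 3 (0.0553), young 2 (0.0920) or young 3 (0.0848), and after trend removal (1.48, adjusted p = 0.120). Reads of the near-identical copies could be split between them by the authors' counting, so the single values are uncertain. Neutrophil markers had sums of 3341, 662 and 2720.3 in old nerves and 3054, 775 and 401 in young nerves, and 1 of 12 rose.

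The pore-forming pair of the mitochondrial route did not pass. Bax had 1052, 1052 and 1001 in old nerves and 849, 922 and 940.4 in young nerves, so that its old libraries were all higher, by a log2 fold change of 0.20 (interval 0.02 to 0.38, adjusted p = 0.0860), and it passed with upper-quartile scaling (adjusted p = 0.0294). Bak1, which is overlapped along its length by Ggnbp1 on the opposite strand (mean 318 counts), had 391, 394 and 382 in old nerves and 373, 424 and 416 in young nerves (-0.05, interval -0.29 to 0.18). The ratio of Bax to Bcl2 was 0.412, 0.487 and 0.466 in old nerves and 0.466, 0.436 and 0.462 in young nerves, with group means of 0.455 in both. Bcl2l1 relative to Bax was 7.90, 5.94 and 7.99 in old nerves and 5.29, 5.96 and 5.33 in young nerves, where old 2 lay within the young range.

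Of 5 BH3-only genes 1 rose and none fell, which is near the 15.9% of all tested genes that rose. Pmaip1 (Noxa), a p53 target whose product binds Mcl1, had 53.9, 74.0 and 56.1 in old nerves and 19.7, 3.93 and 9.91 in young nerves, or 51, 78 and 58 reads in old nerves and 21, 4 and 9 in young nerves. Every old library was more than double every young one, and Pmaip1 rose 5.48-fold (log2 fold change 2.57 ± 0.52, adjusted p = 0.0117). Bid, the link from caspase-8 to the mitochondria, had 129, 175 and 127 in old nerves and 118, 60.9 and 78.2 in young nerves. It did not pass (0.78, interval 0.13 to 1.42, adjusted p = 0.0640), except in DESeq2 (0.0489) and without young 1 (1.03, adjusted p = 0.0306). Bbc3 (Puma), another p53 target, had 35.9, 40.8 and 40.6 in old nerves and 63.9, 48.2 and 52.9 in young nerves, all lower without passing (-0.47, interval -0.998 to 0.05). Bad (0.17, interval -0.06 to 0.40; overlapped over 590 bases by Gpr137, mean 3159.8 counts, on the opposite strand) and Bcl2l11 (Bim, -0.05, interval -0.25 to 0.15) did not pass, and their groups overlapped.

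**Figure D4:**
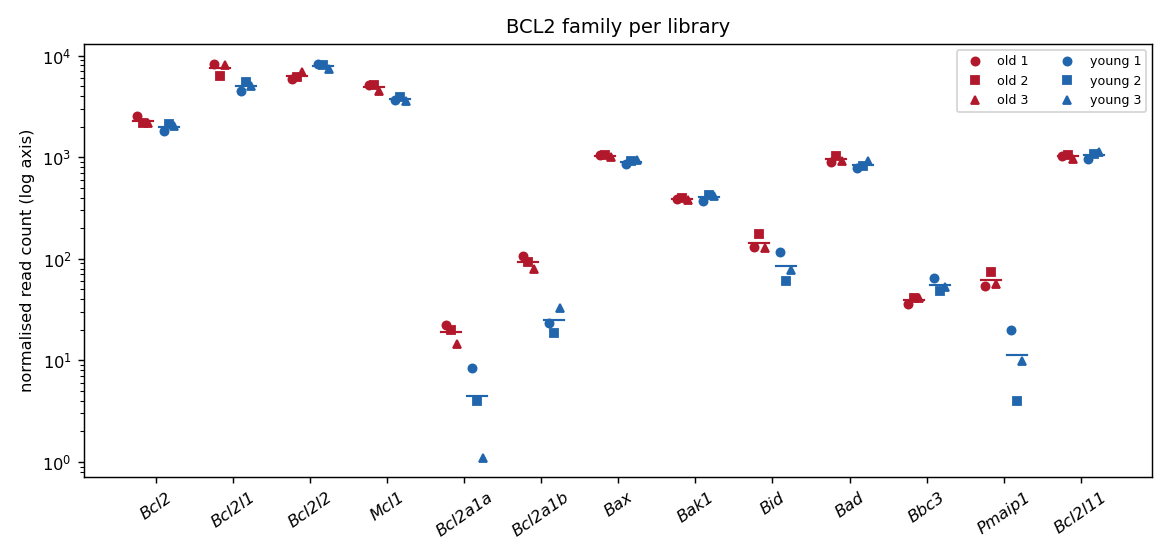
Normalised read counts of anti-apoptotic (left 6 genes), pore-forming (Bax, Bak1) and BH3-only (right 5 genes) members on a log axis, per library, with old left of young and bars for group means (n = 3 mice). Bcl2a1a, Bcl2a1b and Pmaip1 have the widest gaps between the groups, and Bcl2l2 is lower in old nerves.

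Among BCL2 relatives of less settled function, Bcl2l14 (BCL-G) had 63.4, 38.0 and 43.5 in old nerves and 8.46, 26.5 and 19.8 in young nerves. It rose by 1.45 ± 0.45 on the log2 scale (adjusted p = 0.0428), and the call was lost without any 1 of the 6 libraries (0.133 without old 1, 0.0650 without old 2, 0.0726 without old 3, 0.0798 without young 1, 0.0512 without young 2, 0.0844 without young 3) and with the trends removed (1.31, adjusted p = 0.0749). Bcl2l13, a receptor for the removal of mitochondria by autophagy, had 1818, 1759 and 1825 in old nerves and 2154, 2142 and 2126 in young nerves. The values were tight within each group, and it fell by 0.25 ± 0.06 (adjusted p = 0.0172). It missed the threshold without old 2 (0.0523), young 1 (0.0612), young 2 (0.0666) or young 3 (0.0661), and after trend removal it stood at 0.02 (adjusted p = 0.828). Its 3′ end faces that of Bid across 276 bases on chromosome 6. Bcl2l12 (0.22; overlapped over 3380 bases by Gm15545, mean 56.8 counts, on the opposite strand) and Bcl2l15 (0.20) did not pass.

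Among 5 inhibitors of apoptosis 1 rose and 1 fell, shares near the 15.9% and 18.7% of all tested genes. Birc3 (cIAP2), a ubiquitin ligase of NF-κB signalling, had 475, 457 and 413 in old nerves and 360.1, 309 and 312 in young nerves. The groups were apart, and it rose 1.37-fold (0.46 ± 0.11, adjusted p = 0.0219). Its neighbour Birc2 (cIAP1), 11643 bases away on chromosome 9, had 2491, 2568 and 2561 in old nerves and 2238, 2332 and 2380 (2379.6) in young nerves. All old values were above the young ones by a narrow margin, and Birc2 passed with upper-quartile scaling (0.21, adjusted p = 0.0250) and not here (0.13, adjusted p = 0.121).

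Birc6, a giant ubiquitin-conjugating inhibitor encoded by a transcript of 15768 nt, had 7656, 7323 and 7259.7 in old nerves and 8575, 9215 and 8774 in young nerves. It fell by 0.26 ± 0.06 (adjusted p = 0.0205), and after length and GC trends were removed it stood at 0.21 on the other side of 0 (adjusted p = 0.0608). Xiap, the inhibitor that binds caspases directly, had 6301, 5570.0 and 5817 in old nerves and 6422, 6501 and 5838 in young nerves, which overlap (-0.09, interval -0.26 to 0.09). Birc5 (survivin), a protein of the mitotic spindle, had 60.3, 37.0 and 28.0 in old nerves and 21.6, 31.5 and 13.2 in young nerves, which overlap as well (0.90, adjusted p = 0.139). Of 10 proliferation markers tested none rose and 1 fell. Birc3 missed the threshold without old 1 (0.0632), old 2 (0.0600), young 2 (0.0823) or young 3 (0.0787), and after trend removal (0.35, adjusted p = 0.0532), and Birc6 missed it without old 2 (0.0611), young 2 (0.0851) or young 3 (0.0727).

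Fold changes followed transcript length across the table, which touched these results. Over 14896 genes with a known length the correlation across genes of length with log2 fold change was -0.38 (Spearman; genes are not independent replicates). Of the 7 members with a transcript over 5000 nt 6 had a negative log2 fold change. That share was not computed for all genes of such length, so it cannot be read as a trait of the members. With smooth trends in length and GC content removed from each library, 9 members rose and none fell. Over all 14896 genes in that fit 1740 rose and 1974 fell. Among the 9 were Bcl2a1b, Bcl2l1, Mcl1, Bcl2, Pmaip1, Casp8 (0.51), Gsdmd (0.58) and Pycard (0.63). The length used for Pycard, 3800 nt, is longer than its deposited locus on chromosome 7 (127991373 to 127993867). Its value with the trends removed is therefore uncertain. The 3 falls were lost, 2 with a change of sign.

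**Figure D5:**
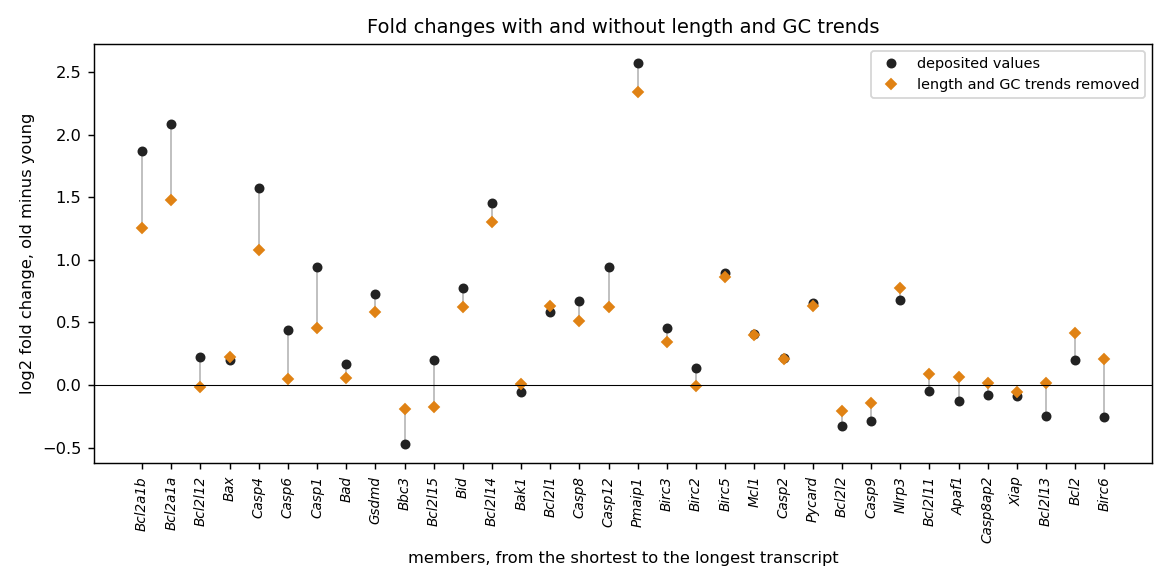
Log2 fold change, old minus young, of 34 of the 36 members as deposited (circles) and with length and GC trends removed (diamonds), ordered from the shortest to the longest transcript. Short members such as Bcl2a1b and Casp6 (0.04 after removal) moved down and long ones such as Bcl2 (0.42) and Birc6 (0.21) moved up.

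Other genes of the pathways came from lists of 62 genes, of which 56 were tested. Of them 12 rose (21.4%) and 9 fell (16.1%), against 15.9% and 18.7% of all genes. Among 14 death receptor genes 2 rose (14.3%) and 3 fell (21.4%), near those shares. Fas, the death receptor upstream of caspase-8, had 253, 215 and 245 in old nerves and 73.3, 60.9 and 95.8 in young nerves. Every old library was more than double every young one, and Fas rose 3.10-fold (log2 fold change 1.64 ± 0.20, adjusted p = 0.00477). Cradd, an adaptor of caspase-2, rose by 0.43 ± 0.12 (adjusted p = 0.0302), and its usual partner Pidd1 fell by 0.62 ± 0.20 (0.0489).

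Further death receptors were lower. Tnfrsf21 (DR6), known from axon pruning, had 2840 (2839.5), 3632 and 5255 in old nerves and 6439, 8123 and 8195 in young nerves, a fall of 0.99 ± 0.22 (adjusted p = 0.0140). Tnfrsf25 (DR3) had 85.6, 52.2 and 69.6 in old nerves and 166, 216 and 227 in young nerves, a fall of 1.56 ± 0.23 (adjusted p = 0.00584). None of the necroptosis genes Ripk3 (-0.58, adjusted p = 0.0543), Mlkl (0.17) and Zbp1 (1.68, adjusted p = 0.0521) passed. Zbp1 did so in edgeR (0.0380) and DESeq2 (0.00398), and it had 166, 58.8 and 32.9 in old nerves and 17.9, 20.6 and 24.2 in young nerves. Cradd was lost without old 1 (0.0840), old 2 (0.0581), young 1 (0.0912) or young 2 (0.0988), and after trend removal (0.17), Tnfrsf21 without young 2 (0.0564) or young 3 (0.0519), and Pidd1 without any library but old 3 and in edgeR (0.0510).

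In the mitochondrial list 3 of 12 rose (15.9% of all tested genes did) and 1 fell (18.7%). Bik, a BH3-only gene, had 279, 188 and 192 in old nerves and 76.2, 112 and 118 in young nerves, without overlap, and rose by 1.10 ± 0.24 (adjusted p = 0.0138). The mitophagy receptors Bnip3 (0.39 ± 0.10, adjusted p = 0.0197) and Bnip3l (0.31 ± 0.06, adjusted p = 0.0103) rose as well, although with the trends removed Bnip3 was at -0.02 and Bnip3l at 0.14 (0.112). Bmf, another BH3-only gene, fell by 0.51 ± 0.12 (adjusted p = 0.0206; -0.29 and 0.106 with the trends removed). Bnip3 was lost without young 1 (0.0533) or young 3 (0.0749), and Bmf without old 1 (0.0579), young 1 (0.0546) or young 2 (0.0747).

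Of 11 genes of p53 and DNA cleavage 2 rose (18.2%) and 4 fell (36.4%), against 15.9% and 18.7% of all tested genes. Zmat3, a p53 target, had 1804, 1768 and 2448 in old nerves and 3341, 3926 and 3664 in young nerves, a fall of 0.87 ± 0.14 (adjusted p = 0.00623) that held without each library. Parp1, a DNA repair enzyme cleaved during apoptosis, fell by 0.64 ± 0.13 (adjusted p = 0.0119), Dffa, which restrains the apoptotic nuclease, by 0.45 ± 0.12 (0.0303) and Sesn2 by 0.52 ± 0.10 (0.0105). Perp (0.46 ± 0.11, 0.0200) and Sesn1 (0.55 ± 0.18, 0.0486), p53 targets too, rose. Trp53 itself did not pass (-0.20, adjusted p = 0.0991), and Cdkn1a, the cell cycle target of p53, was at 0.10. Dffa was lost without old 2 (0.0638), young 1 (0.0696), young 2 (0.0887) or young 3 (0.0921), Sesn2 without young 2 (0.0502), Perp without old 1 (0.0567), old 2 (0.0569), young 2 (0.0652) or young 3 (0.0733), and Sesn1 without any library but old 2. With the trends removed Sesn2 was at -0.26 (0.133) and Perp at 0.22 (0.129).

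Of 16 inflammasome genes 5 rose (31.2%) and 1 fell (6.25%), against 15.9% and 18.7% of all tested genes. Nlrp1b, a sensor upstream of caspase-1, had 222, 110.1 and 102 in old nerves and 32.0, 35.4 and 40.7 in young nerves, so that all old libraries were more than double the young ones (log2 fold change 1.89 ± 0.32, adjusted p = 0.00767). Txnip, a stress-induced protein that binds Nlrp3, had 12626, 9805 and 12256 in old nerves and 5376, 7426 and 6083 in young nerves and rose by 0.88 ± 0.14 (adjusted p = 0.00699). Naip1, a sensor of bacterial secretion systems with close copies in the genome, rose by 1.08 ± 0.30 (0.0300), and P2rx7, the ATP-gated channel that triggers Nlrp3, fell by 0.23 ± 0.06 (0.0262). Both calls were lost with several single libraries left out, Naip1 without old 1 (0.0939), old 3 (0.0584), young 1 (0.0801) or young 3 (0.0896) and P2rx7 without old 2 (0.0680), young 1 (0.0751), young 2 (0.0825) or young 3 (0.101), and P2rx7 was at -0.07 with the trends removed.

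Of the cytokines that caspase-1 matures, Il18 had 263, 347 and 220 (219.5) in old nerves and 192, 162 and 188 in young nerves and rose by 0.59 ± 0.19 (adjusted p = 0.0485), a call lost without any library but old 3 and at 0.01 with the trends removed. Il1b had 28.5, 24.7 and 14.5 in old nerves and 15.0, 14.7 and 11.01 in young nerves, which overlap, and did not pass (0.65, adjusted p = 0.210). Il1rn, the secreted antagonist of interleukin-1, had 10.6, 36.1 and 26.1 in old nerves and 8.46, 0.983 and 0 in young nerves, where its values are a few reads or none (adjusted p = 0.0355), and missed the threshold in edgeR (0.0505) and without old 1 (0.0516), old 2 (0.0999), old 3 (0.0815), young 2 (0.106) or young 3 (0.0978). Of the pathway genes, Pidd1, Ripk3, Mlkl, Zbp1, Dffa, Sesn1, Trp53, Cdkn1a, Il18, Il1b and Il1rn were named after their values were seen.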

How the data were processed

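Whole-nerve RNA of 6 mice was sequenced with a TruSeq library kit, per the labels' protocols. The submitters' processing notes name mm10, TopHat2, Partek and DESeq2; no version, annotation or strand setting is stated. The deposited signal is the authors' read count per gene divided by 1 size factor per library, as the values show: 99.9305% to 99.9712% of values above 0 are whole multiples (tolerance 0.1) of the value of 1 read. The deposited p-values, FDR and signed fold change (a score) come from the authors' comparison, per the file headers; 342 genes have no FDR. Ends are the deposited stop less 1.

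Old was tested against young with limma 3.58.1 (trended empirical Bayes variances, two-sided) on log2(value + 1). Fold values given beside a log2 fold change are ratios of the group means of normalised counts, so the 2 measures differ somewhat. Genes entered if edgeR's filterByExpr kept the recovered reads (minimum count 10, minimum total 15). Benjamini-Hochberg adjustment ran over 15882 genes, with a threshold of 0.05. An exact permutation test of 3 against 3 cannot go below 0.1. Alternatives were edgeR 4.0.16 (2529 genes higher and 2885 lower) and DESeq2 1.42.0 on recovered reads, other scalings, pseudocounts and filters, a replicate block, each library left out, and smooth length and GC trends (mgcv 1.9.3) removed. Lengths came from the longest protein-coding GENCODE M21 transcript (93.8% of tested genes). Replicates differed beyond sampling noise (chi-square over degrees of freedom, 18.9 to 66.2). The steps were checked on simulated counts. Named genes were all members, and up to 4 called genes per pathway list with the smallest p. Values of 2 members are not reported here one by one, and the caspase classes were set side by side without them, a choice made after the data were seen. Members and lists were chosen with earlier results of these data known.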

Additional observations from a re-analysis of the deposited data

How the results depend on the processing

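Counts of members that rose and fell, 14 and 3, were 7 and 0 with a replicate block, 9 and 0 with length and GC trends removed, 4 and 0 without young 1 and old 2 together, and 16 and 0 with upper-quartile scaling. With 1 library left out they ranged from 6 to 13 and from 0 to 4. Those of the other pathway genes, 12 and 9, were 4 and 5 with the block, 7 and 7 with the trends removed and 5 and 2 without young 1 and old 2, and ranged from 6 to 11 and from 3 to 9 with 1 library left out. Over all genes, 2524 rises and 2969 falls became 1078 and 1633 with the block, 1740 and 1974 with the trends removed, 831 and 945 without young 1 and old 2, and 1159 to 2757 and 1430 to 3360 with 1 library left out. Among called genes named here, length and GC removal turned Bcl2l13 (0.0188), Birc6 (0.21) and Bnip3 (-0.0229) to the other side of 0, as it did 7 members that had passed in neither direction (Apaf1, Bak1, Bcl2l11, Bcl2l12, Bcl2l15, Birc2 and Casp8ap2). The cause of these changes was not tested. In edgeR, with either scaling, TMM within limma and either pseudocount, the 17 called members were the same. Same-numbered libraries did not deviate together (r = -0.29, -0.41 and -0.05). Such correlations, of values centred within groups of 3 libraries, cannot decide whether same-numbered libraries were handled together. Low counts limit Bcl2a1a, Bcl2l14, Birc5 and Pmaip1. Of 678 values of single members under an alternative, 76 lost the threshold with the same sign and 10 gained it. The sign changed in 15, of which 2 were of called members and 13 of members that had not passed.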
